A study of Homo sapiens with 15 samples.

Results

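The 41 genes described here build or process the cornified envelope. They were chosen by name, with earlier results of these data known, from the 18179 genes listed in the deposited gene tables. They cover the small proline-rich (SPRR) and late cornified envelope (LCE) proteins, the major precursors involucrin and loricrin, the filaggrin-like proteins, the scaffold and linker proteins of the envelope, secreted and junctional proteins of the upper epidermis, calmodulin-like proteins, processing enzymes and the epidermal lipoxygenases. Expression was measured by RNA sequencing in HaCaT, an established, spontaneously immortal human epidermal keratinocyte line that can be driven to differentiate. The 5 groups, with 3 libraries each, were untreated HaCaT cells (control, libraries 1 to 3), cells given Ag2S NPs (silver sulfide nanoparticles that emit near-infrared light) at 160 μg/mL (libraries 4 to 6) or 320 μg/mL (libraries 7 to 9), and cells given Li-doped Ag2S NPs, the same particles made with lithium added, at 160 μg/mL (libraries 10 to 12) or 320 μg/mL (libraries 13 to 15), all treated groups for 24 h. Every group came from the same cell line, and since the labels do not name separate cultures for the 3 libraries of a group, p-values reflect only how far these libraries spread, which may be technical.

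The cornified envelope is a sheet of cross-linked protein that replaces the plasma membrane of keratinocytes at the end of their life. In the upper layers of the epidermis transglutaminases first tie the scaffold proteins envoplakin and periplakin and the precursor involucrin together under the membrane, and loricrin, SPRR and LCE proteins are then cross-linked onto this base while lipids made with the help of the epidermal lipoxygenases are attached outside. Many of these proteins are encoded side by side in the epidermal differentiation complex on chromosome 1, and they are known as markers of late keratinocyte differentiation. Of the 41 genes, 24 lie in this cluster, between positions 152153595 and 153262122 of chromosome 1 (GRCh38, GENCODE release 29), and PADI1 and PADI3 lie elsewhere on the same chromosome.

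The upstream sequences of a few members, each of which rose or fell in every treated group, are shown first. RefSeq promoters, reaching from 250 bases before to 50 bases after the gene start on GRCh38.p14, were matched for 31 of the 41 genes. The AP-1 motif TGANTCA (N being any base), read on both strands, where it is the same, was found in 16 of these 31 promoters (51.6%), against 7.71% of all 35116 promoters in the table. Of the 8 SPRR promoters matched, 6 held it. The letters TATAAA, on either strand, were found in 14 of the 31 (45.2%) and in 7 of the 8 SPRR promoters, against 11.5% of all promoters, and no match of one motif overlapped a match of the other in the promoters printed here. Among the 10 matched promoters of members that were tested, the shares were lower, with AP-1 in 4 (40%) and TATAAA in 2 (20%). Printed here are the 4 tested members with AP-1. Of these, SPRR1A (chr1:152983831-152984130, plus strand) and SPRR1B (chr1:153030953-153031252, plus strand) rose in every treated group, and IVL (chr1:152908296-152908595, plus strand) and SCEL (chr13:77535456-77535755, plus strand) fell in every treated group. Capitals mark the AP-1 and TATAAA matches.
SPRR1A: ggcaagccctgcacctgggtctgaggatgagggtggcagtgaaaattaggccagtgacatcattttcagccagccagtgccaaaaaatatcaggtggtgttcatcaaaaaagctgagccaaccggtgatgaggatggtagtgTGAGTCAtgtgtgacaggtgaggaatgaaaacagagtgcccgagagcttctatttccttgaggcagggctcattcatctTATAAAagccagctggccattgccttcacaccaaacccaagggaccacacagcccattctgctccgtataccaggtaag
SPRR1B: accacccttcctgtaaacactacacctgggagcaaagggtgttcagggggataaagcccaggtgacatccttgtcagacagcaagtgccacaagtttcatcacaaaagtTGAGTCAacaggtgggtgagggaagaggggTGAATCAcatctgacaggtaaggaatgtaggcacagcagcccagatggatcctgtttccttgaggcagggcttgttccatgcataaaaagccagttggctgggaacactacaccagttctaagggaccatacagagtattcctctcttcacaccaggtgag
IVL: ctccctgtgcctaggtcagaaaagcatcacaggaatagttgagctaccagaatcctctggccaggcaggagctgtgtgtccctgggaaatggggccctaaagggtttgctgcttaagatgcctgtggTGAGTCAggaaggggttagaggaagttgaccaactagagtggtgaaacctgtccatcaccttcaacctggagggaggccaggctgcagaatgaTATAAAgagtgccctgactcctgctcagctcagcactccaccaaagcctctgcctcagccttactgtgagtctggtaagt
SCEL: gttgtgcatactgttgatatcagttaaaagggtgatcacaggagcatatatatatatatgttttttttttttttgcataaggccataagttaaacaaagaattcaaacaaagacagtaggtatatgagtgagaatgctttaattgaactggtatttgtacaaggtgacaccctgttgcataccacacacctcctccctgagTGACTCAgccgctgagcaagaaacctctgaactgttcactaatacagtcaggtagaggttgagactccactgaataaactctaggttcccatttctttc
All 4 promoters hold an AP-1 match, with 2 in SPRR1B, and SPRR1A and IVL also hold TATAAA. The printed promoters are those of all tested members in which AP-1 was found, so that each holds it follows from the choice. LCE3E and PADI1 also rose in every treated group, and their matched promoters, not printed here, hold neither motif. For PADI3 and PPL, which rose and fell in every treated group, no promoter was matched. The promoters of LCE1C and LCE3D, which were higher after Li-doped Ag2S NPs at 160 μg/mL than in control, hold neither motif. A match of letters is a description of the sequence and not evidence that a factor bound there.

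Expression is given as FPKM, fragments per kilobase of transcript scaled to the mapped fragments of the library, which allows levels of different genes to be compared per length. Of the 41 genes, 6 had no row in the tables and were not analysed here (SPRR2B, LCE3C, FLG, FLG2, CRNN and HRNR). Another 12 were near 0, under 1 FPKM in every library in which they were listed, namely SPRR2F, SPRR2G, SPRR3, SPRR4, LCE1B, LCE1E, LOR, RPTN, CDSN, KRTDAP, CALML3 and ASPRV1. SPRR2F, SPRR2G, SPRR3 and CALML3 were listed only in the table of 160 μg/mL. LOR encodes loricrin, the most abundant protein of the mature envelope in skin, and its group means were between 0 and 0.0567 FPKM. CDSN, the adhesive protein of cornified junctions, lies over PSORS1C1 on the opposite strand, which shares 93.8% of its 100-base windows, and no source used here states that the libraries kept the strand, so the reads of these genes cannot be told apart. The other 23 genes reached 1 FPKM in at least 1 library, and the heat map of all listed members shows both sets.

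**Figure D1:**
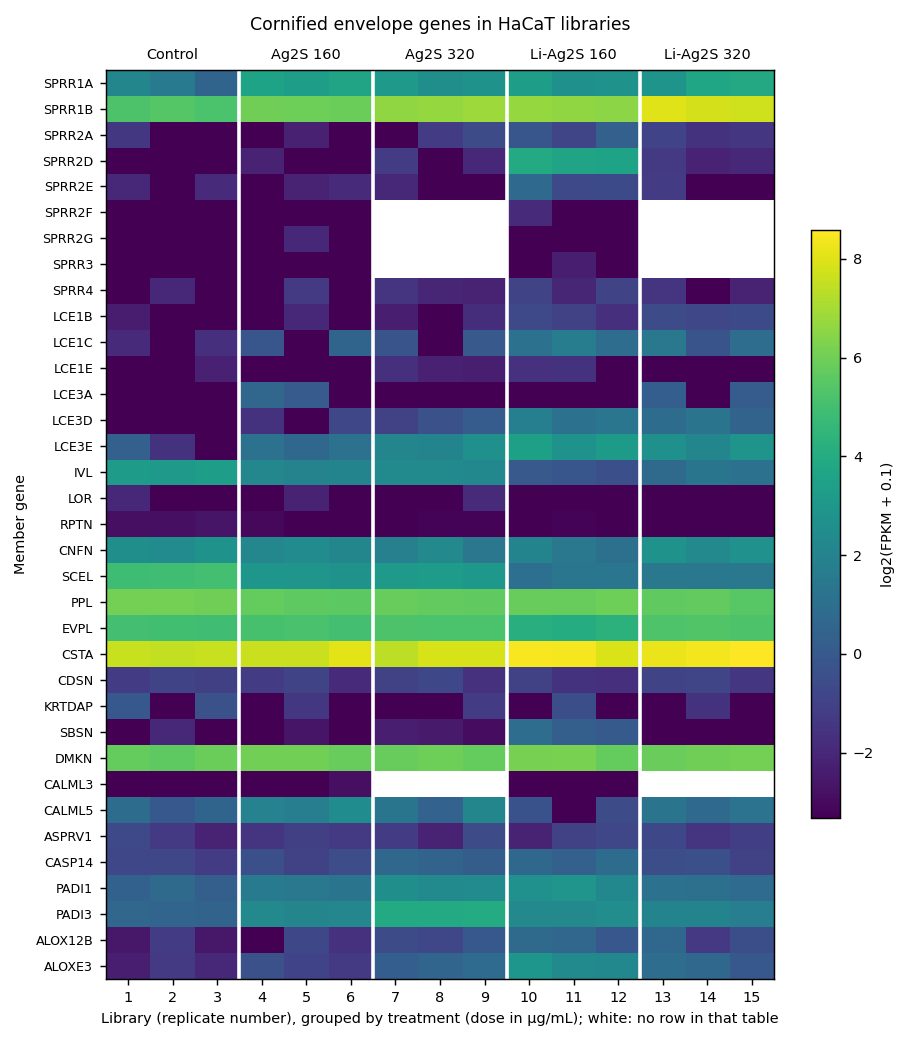
Heat map of log2(FPKM + 0.1) for the 35 members with a row (vertical axis) in the 15 libraries (horizontal axis, grouped by treatment with doses in μg/mL); white cells are genes without a row in the table of that dose. CSTA, PPL, DMKN and SPRR1B are bright in every library, 12 members are dark throughout, and SPRR2D is bright only in the 3 libraries given Li-doped Ag2S NPs at 160 μg/mL.

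In untreated cells the highest levels belonged to CSTA at 187.6 FPKM ± 6.26 (SD, n = 3), PPL at 67.4 ± 2.28, DMKN at 54.2 ± 4.86, SPRR1B at 39.7 ± 3.18, EVPL at 31.5 ± 1.20 and SCEL at 30.4 ± 1.41. EVPL and SCEL did not differ beyond their spread, and the other neighbours in this order did not overlap between libraries. IVL followed at 9.0 ± 0.68 and CNFN at 5.96 ± 0.73. The basal keratinocyte markers KRT5 and KRT14 were at 4128 and 2635 FPKM in these cells, so the keratinocyte label was borne out by its markers. The late markers that define cornified skin (LOR, FLG, FLG2) were near 0 or had no row. The summed FPKM of the libraries ran from 582451 to 648712, except for 698579 in library 15 (Li-doped Ag2S NPs, 320 μg/mL), which stood apart. Without library 15 the counts at 320 μg/mL against control were 7 risen and 4 fallen members for Ag2S NPs and 8 and 3 for Li-doped Ag2S NPs, against 6 and 4, and 8 and 3, with it. The equal count for Li-doped Ag2S NPs does not mean the same members, since the call of DMKN was lost without library 15. Leaving out a library also shifts the mean level that decides which members are tested. ALOXE3 was close to that level, with a mean of 0.991 FPKM over the libraries of 320 μg/mL and control. Markers of other cell types also moved with treatment. The summed level of 7 fibroblast markers, 2 of which reached 1 FPKM in a library, was 10.7 to 15.04 FPKM in control and 0.320 to 0.650 after Li-doped Ag2S NPs at 160 μg/mL, 0.710 to 3.94 after them at 320 μg/mL, 3.82 to 4.97 after Ag2S NPs at 160 μg/mL and 0.650 to 1.46 after these at 320 μg/mL. LUM and DCN made up nearly all of it in control, while the defining collagen genes COL1A2 and COL3A1 were under 0.1 FPKM in every library. The sum of 4 endothelial markers, of which CDH5 alone reached 1 FPKM, was 3.36 to 4.01 in control and 0.0700 to 0.810 across treated libraries. Of 5 leukocyte markers, CD68 and CD14 reached 1 FPKM in a library, and CD68 made up most of their sum. The sum was 11.1 to 12.3 in control, 13.7 to 15.8 and 18.4 to 21.99 after Ag2S NPs at 160 and 320 μg/mL, and 26.1 to 29.6 and 9.78 to 12.1 after Li-doped Ag2S NPs at these doses. That of 6 melanocyte markers was 1.74 to 1.96 in control, 1.93 to 3.05 and 2.09 to 3.11 after Ag2S NPs, and 3.07 to 3.34 and 2.27 to 3.02 after Li-doped Ag2S NPs. The part of these markers in the results below was not tested. In bulk RNA, fewer cells in a given state and less RNA per cell cannot be told apart.

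Each dose was compared with control in a limma fit across all genes with a mean of at least 1 FPKM over the 9 libraries of that dose, and an adjusted p under 0.05 was called. This level was met by 16 members at 160 μg/mL and 13 at 320 μg/mL. Of these, SPRR2D, LCE1C, LCE3E and ALOXE3 at 160 μg/mL and LCE3E at 320 μg/mL had a control mean under 1 FPKM. They passed only through the treated groups, so the filter favoured a rise in the groups where they were high. In other groups a difference did not have to follow, and some were not called. After Ag2S NPs at 160 μg/mL, 5 members rose, 3 fell and 8 were not called, while 35.2% of all genes were called, 11.5% higher and 23.8% lower. After Li-doped Ag2S NPs at 160 μg/mL, 9 rose, 6 fell and 1 was not called, with 63.3% of all genes called, 22.6% higher and 40.6% lower. At 320 μg/mL the counts were 6 risen, 4 fallen and 3 not called for Ag2S NPs (52.4% of all genes called, 16.2% higher and 36.2% lower) and 8, 3 and 2 for Li-doped Ag2S NPs (61.6%, 17.0% and 44.6%). Over the 12 members with a control mean of at least 1 FPKM the same counts were 4 risen and 3 fallen, 5 and 6, 5 and 4, and 7 and 3. Of the tested members 50%, 93.8%, 76.9% and 84.6% were called in these comparisons, each above the share of all genes. The members were chosen with earlier results of these data known, so this describes a chosen set of few genes and is no test. Judged by overlap with the control libraries alone, 8 members lay above and 3 below control after Ag2S NPs at 160 μg/mL (52.2% of all genes did not overlap), 9 and 6 after Li-doped Ag2S NPs at that dose (71.1%), and 6 and 4 (65.5%) and 7 and 3 (67.1%) at 320 μg/mL. The median log2 change of all genes for undoped and Li-doped particles was -0.14 and -0.19 at the lower dose, and -0.19 and -0.26 at the higher, and scaling the libraries by median ratio brought it to between -0.03 and -0.01. All 4 comparisons share the control libraries. LCE3E, PADI1, PADI3, SPRR1A and SPRR1B rose in all 4, IVL, PPL and SCEL fell in all 4, and EVPL rose after both particles at 320 μg/mL and fell after Li-doped Ag2S NPs at 160 μg/mL.

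**Figure D2:**
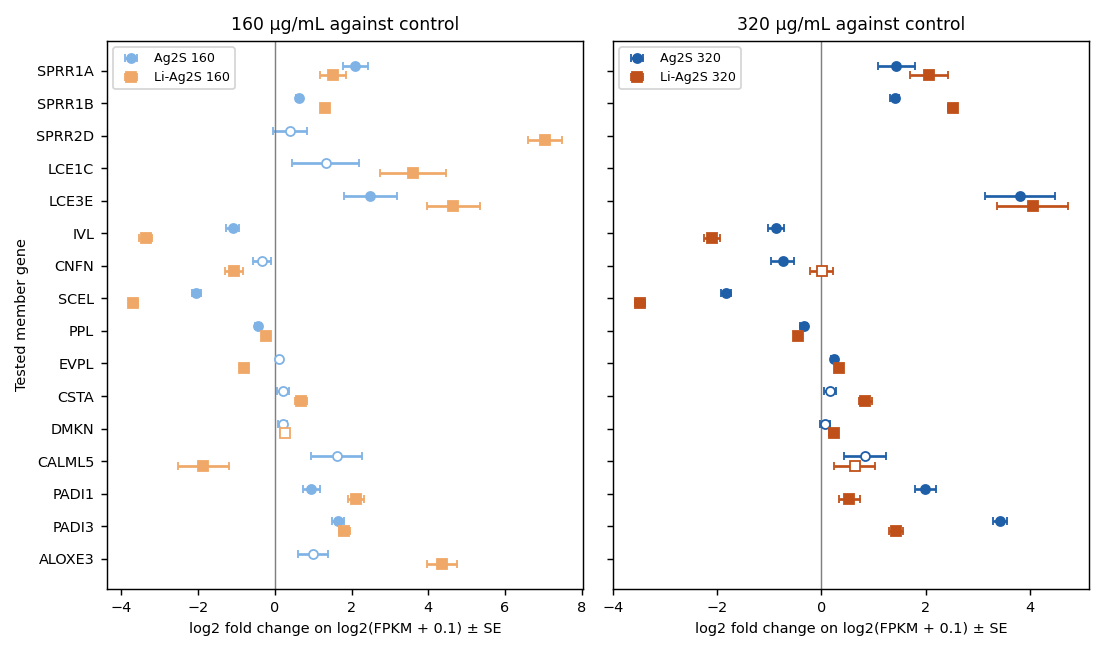
Log2 fold change against control on log2(FPKM + 0.1), with SE (horizontal axis), of the tested members (vertical axis) at 160 μg/mL (left) and 320 μg/mL (right); circles are Ag2S NPs, squares Li-doped Ag2S NPs, and filled symbols have an adjusted p under 0.05. SPRR1A, SPRR1B, LCE3E, PADI1 and PADI3 sit right of 0 and IVL, SCEL and PPL left of 0 for both particles at both doses.

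Among the SPRR proteins, short repeat-rich bridges that cross-link other envelope proteins, SPRR1B (chr1:153031202-153032900, plus strand) was the most abundant and rose in every treated group. Its FPKM in the control libraries were 38.41, 43.36 and 37.42. Ag2S NPs gave 63.64, 62.61 and 59.42 at 160 μg/mL, against 98.41, 105.14 and 113.42 at 320 μg/mL. Li-doped Ag2S NPs gave 104.94, 98.53 and 91.72 at 160 μg/mL, against 252.5, 226.5 and 208.56 at 320 μg/mL. No treated group overlapped the control, and the libraries with Li-doped Ag2S NPs at 320 μg/mL were above all others. The log2 changes against control were 0.64 ± 0.08 (SE, adjusted p = 0.000207) and 1.31 ± 0.08 (adjusted p = 1.46e-07) at 160 μg/mL for undoped and Li-doped particles, and 1.41 ± 0.09 (adjusted p = 2.34e-07) and 2.52 ± 0.09 (adjusted p = 2.88e-09) at 320 μg/mL. SPRR1B was also the member that separated the particles at each dose in the same direction and the doses for each particle. Li-doped particles gave 1.59-fold more than undoped ones at 160 μg/mL (adjusted p = 4.50e-05) and 2.17-fold more at 320 μg/mL (adjusted p = 1.36e-05).

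SPRR1A, a close relative of SPRR1B, was lower in level and more variable. The control libraries held 4.25, 2.76 and 1.34 FPKM. Ag2S NPs gave 11.9, 9.62 and 12.1 at 160 μg/mL, against 8.62, 6.03 and 6.62 at 320 μg/mL. Li-doped Ag2S NPs gave 10.04, 6.16 and 6.56 at 160 μg/mL, against 7.06, 12.6 and 14.51 at 320 μg/mL. Every treated library was above every control library, and the treated groups overlapped one another in part. The rises were 4.30-fold (log2 2.104 ± 0.34, adjusted p = 0.00115) and 2.87-fold (log2 1.52 ± 0.34, adjusted p = 0.0024) at 160 μg/mL for undoped and Li-doped particles, and 2.72-fold (log2 1.44 ± 0.36, adjusted p = 0.00647) and 4.20-fold (log2 2.07 ± 0.36, adjusted p = 0.000554) at 320 μg/mL. The particles did not separate at either dose, where the log2 differences, Li-doped minus undoped, were -0.58 (95% interval -1.33 to 0.16) and 0.63 (-0.17 to 1.43). The GENCODE model of SPRR1A is only 270 bases long, and FPKM divides by the length the authors' annotation gave.

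SPRR2D, of the SPRR2 subfamily, was listed at 0 in all 3 control libraries and was far higher in 1 treated group alone. Li-doped Ag2S NPs at 160 μg/mL gave 15.58, 12.27 and 11.7 FPKM, whereas the same particles at 320 μg/mL gave 0.31, 0.13 and 0.15. Ag2S NPs gave 0.13, 0 and 0 at 160 μg/mL, against 0.32, 0 and 0.16 at 320 μg/mL. The 3 libraries of that group stood above the other 12 by a wide margin. SPRR2D rose in that group against control (adjusted p = 1.86e-07) and against Ag2S NPs at the same dose (adjusted p = 6.09e-07), with a fitted log2 difference from control of 7.04 that depends on the pseudocount, since it was 3.82 with a pseudocount of 1 and 10.35 with 0.01. Because SPRR2D passed the filter only through this group, these p-values are no test of its rise. SPRR2A and SPRR2E, which were too low to be tested, showed their highest values in the same libraries. SPRR2A was at 0.81, 0.46 and 1.16 FPKM there and at most 0.57 elsewhere, and SPRR2E was at 1.58, 0.52 and 0.54 there and at most 0.32 elsewhere. These transcripts share sequence, with 20.3% of the 100-base windows of SPRR2A, 12.1% of those of SPRR2E and 4.57% of those of SPRR2D found in other SPRR2 genes, so the division of reads among them is uncertain. SPRR2F, SPRR2G, SPRR3 and SPRR4 had group means of at most 0.343 FPKM.

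The LCE proteins, which are cross-linked late onto the envelope, were low in control, with 1.17 FPKM in 1 library of LCE3E as the highest value. Of those tested against control, LCE3E rose in all 4 comparisons, and LCE1C, tested only at 160 μg/mL, rose in 1. Both passed the filter only through treated groups, so their p-values are no test of a rise where they were high. LCE3E, of the group 3 LCE genes that are known to respond to barrier injury, was at 1.17, 0.23 and 0 FPKM in control. Ag2S NPs gave 2.04, 1.46 and 2.11 at 160 μg/mL, against 4.33, 4.02 and 6.22 at 320 μg/mL. Li-doped Ag2S NPs gave 10.74, 6.85 and 8.73 at 160 μg/mL, against 6.10, 4.26 and 7.02 at 320 μg/mL. No treated library fell within the control range. LCE3E rose in all 4 comparisons, by a log2 of 2.49 ± 0.69 (adjusted p = 0.0186) and 4.65 ± 0.69 (adjusted p = 0.000152) at 160 μg/mL and 3.81 ± 0.68 (adjusted p = 0.000722) and 4.06 ± 0.68 (adjusted p = 0.000391) at 320 μg/mL for undoped and Li-doped particles. The first of these was lost when control library 2 or library 6 was left out (adjusted p 0.0516 and 0.0526). The size of these rises depended on the low control libraries, since over single libraries left out the log2 changes ran from 1.59 to 3.42 and 3.75 to 5.59 at 160 μg/mL, and from 2.91 to 4.74 and 3.16 to 4.99 at 320 μg/mL, each lowest without library 3 and highest without library 1. LCE3D, its neighbour, was listed at 0 in control, at 3.37, 2.16 and 2.47 FPKM after Li-doped Ag2S NPs at 160 μg/mL and at 1.74, 2.30 and 1.29 after them at 320 μg/mL, with at most 1 FPKM after Ag2S NPs. The groups given Li-doped particles thus did not overlap those given undoped ones, where all genes tested at 160 and 320 μg/mL gave 55% and 41.3% without overlap between the particles. In the fit with no filter LCE3D was called against control after Li-doped Ag2S NPs at 160 μg/mL (log2 4.77 ± 0.55, adjusted p = 8.65e-05). At 320 μg/mL it was called after Ag2S NPs (2.91 ± 0.33, adjusted p = 0.000182) and Li-doped Ag2S NPs (4.19 ± 0.33, adjusted p = 1.89e-05). It was not called after Ag2S NPs at 160 μg/mL (1.41 ± 0.55, adjusted p = 0.0987). LCE3D and LCE3E share 5.45% and 5.47% of their windows with each other. LCE1C was at 0.17, 0 and 0.20 FPKM in control, 0.80, 0 and 1.31 and then 0.74, 0 and 0.91 after Ag2S NPs at 160 and 320 μg/mL, and 2.15, 3.25 and 1.80 and then 2.62, 0.76 and 1.79 after Li-doped Ag2S NPs. It rose after Li-doped Ag2S NPs at 160 μg/mL (log2 3.60 ± 0.86, adjusted p = 0.00387), and its log2 difference of 1.32 ± 0.86 after Ag2S NPs was not called (adjusted p = 0.253). At 320 μg/mL it was under the filter. Without the filter it was called there after Li-doped Ag2S NPs (3.03 ± 0.88, adjusted p = 0.0215) and not after Ag2S NPs (1.13 ± 0.88, adjusted p = 0.36). LCE3A was at 0 in 11 of 15 libraries and at most 1.41 FPKM, and LCE1B and LCE1E had group means of at most 0.527. Without the filter LCE1B was called after Li-doped Ag2S NPs at 160 μg/mL (1.89 ± 0.44, adjusted p = 0.00634) and 320 μg/mL (2.34 ± 0.41, adjusted p = 0.00169). It was not called after Ag2S NPs (adjusted p = 0.887 and 0.345). LCE3A was called after Li-doped Ag2S NPs at 320 μg/mL alone (2.35 ± 0.80, adjusted p = 0.0416), and LCE1E in no comparison with control.

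**Figure D3:**
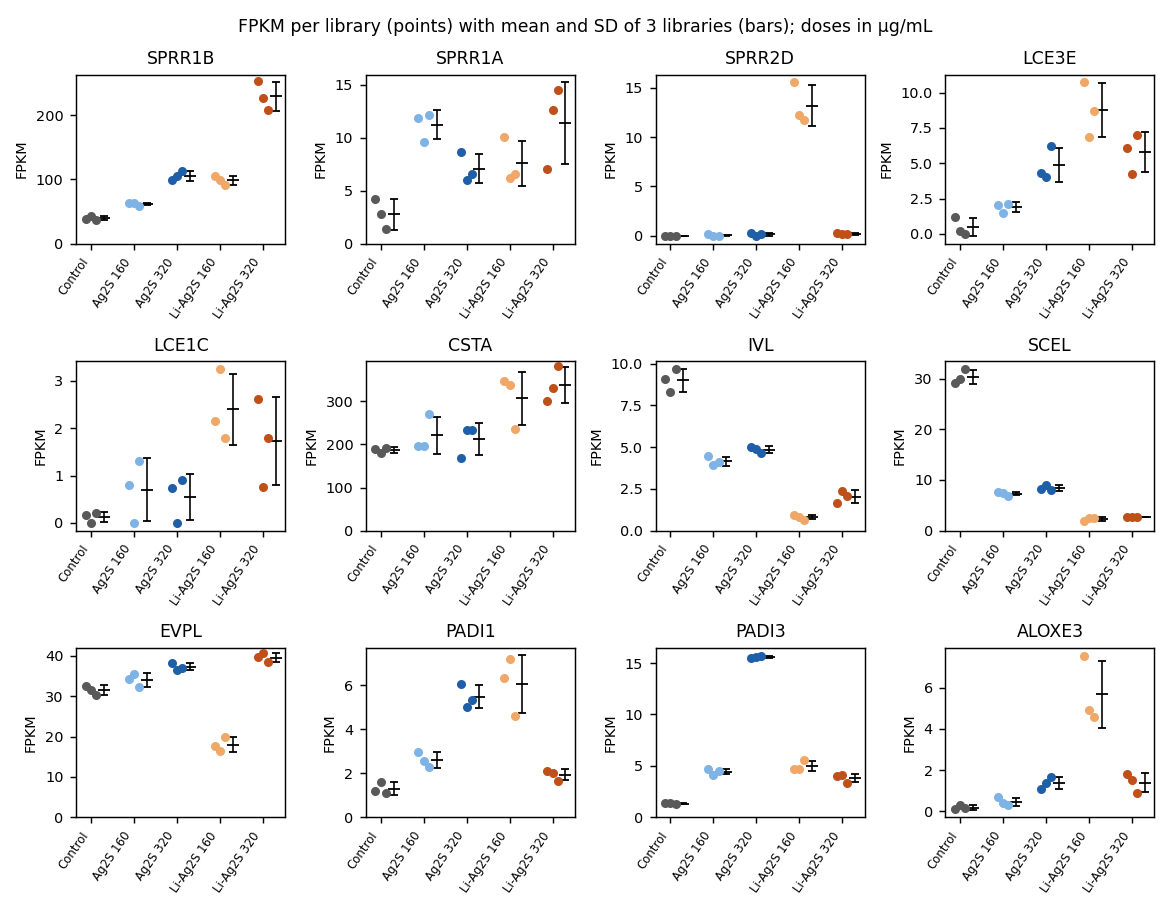
FPKM (vertical axes, linear) of 12 members in each library (points) with the mean and SD of the 3 libraries of each group (black bars), by treatment with doses in μg/mL (horizontal axes). SPRR1B climbs to 208.56 to 252.5 after Li-doped Ag2S NPs at 320 μg/mL, IVL and SCEL lie below control in every treated group, and SPRR2D stands at 11.7 to 15.58 only after Li-doped Ag2S NPs at 160 μg/mL.

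IVL (involucrin, chr1:152908545-152911886, plus strand), the early precursor of the envelope, fell in every treated group although it lies in the same cluster as the SPRR and LCE genes. The control libraries held 9.05, 8.29 and 9.65 FPKM. Ag2S NPs gave 4.45, 3.92 and 4.1 at 160 μg/mL, against 5.03, 4.86 and 4.64 at 320 μg/mL. Li-doped Ag2S NPs gave 0.91, 0.80 and 0.66 at 160 μg/mL, against 1.65, 2.39 and 2.06 at 320 μg/mL. Control, undoped and Li-doped libraries formed ranges that did not overlap. IVL was at 0.468 of control (log2 -1.09 ± 0.16, adjusted p = 0.000777) and 0.0974 of control (log2 -3.36 ± 0.16, adjusted p = 3.19e-08) at 160 μg/mL for undoped and Li-doped particles, and at 0.544 (adjusted p = 0.000715) and 0.233 (adjusted p = 8.85e-07) of control at 320 μg/mL. The difference between particles was called at each dose (adjusted p = 1.32e-06 and 0.000368).

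Of the 5 scaffold and linker proteins, SCEL showed the deepest fall. SCEL (sciellin, chr13:77535674-77645263, plus strand) is a precursor that is joined to the envelope by transglutaminases. Its levels were 29.22, 29.98 and 31.95 FPKM in control, 7.57, 7.39 and 6.93 after Ag2S NPs at 160 μg/mL and 8.17, 9.09 and 8.06 after them at 320 μg/mL. Li-doped Ag2S NPs gave 1.93, 2.49 and 2.43 at 160 μg/mL, against 2.60, 2.64 and 2.61 at 320 μg/mL. As for IVL, the ranges of control, undoped and Li-doped libraries were apart. SCEL was at 0.243 (adjusted p = 1.34e-06) and 0.0778 (adjusted p = 2.14e-09) of control at 160 μg/mL, and at 0.280 (adjusted p = 8.86e-08) and 0.0892 (adjusted p = 7.64e-10) at 320 μg/mL, for undoped and Li-doped particles. The doses of a particle were not separated, with log2 differences of 0.21 (95% interval -0.04 to 0.45) for Ag2S NPs and 0.20 (-0.05 to 0.44) for Li-doped Ag2S NPs. Each of its 3 main transcripts was lower in all treated groups. The most abundant, ENST00000377246, was at 16.6 FPKM ± 2.99 (SD, n = 3) in control and between 1.15 and 3.60 on average in treated groups.

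PPL and EVPL (periplakin and envoplakin), partners in the plakin scaffold under the membrane, moved differently. PPL fell in all 4 comparisons by small amounts, from 68.23, 69.14 and 64.81 FPKM in control to between 45.31 and 60.85 in treated libraries, with log2 changes of -0.43 ± 0.07, -0.23 ± 0.07, -0.34 ± 0.07 and -0.44 ± 0.07 (adjusted p = 0.00152, 0.018, 0.00255 and 0.000377) for undoped and Li-doped particles at 160 and then 320 μg/mL. The second of these, after Li-doped Ag2S NPs at 160 μg/mL, was -0.06 and not called after scaling by median ratio (adjusted p = 0.536), and it was also lost without library 1, 2, 10 or 11 (log2 reaching -0.22, adjusted p at least 0.0529). EVPL was at 32.61, 31.55 and 30.21 FPKM in control and at 17.69, 16.35 and 19.91 after Li-doped Ag2S NPs at 160 μg/mL, a fall to 0.571 of control (log2 -0.81 ± 0.09, adjusted p = 1.39e-05). At 320 μg/mL the same particles gave 39.61, 40.57 and 38.39, a rise of 0.33 ± 0.06 on the log2 scale (adjusted p = 0.00115), and Ag2S NPs gave 38.29, 36.54 and 36.94, a rise of 0.24 ± 0.06 (adjusted p = 0.00834). In this pair the scaffold partner EVPL therefore stood below control in 1 group and above it in 2.

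CSTA (cystatin A), a cysteine protease inhibitor that is cross-linked into the envelope, was the most abundant member and rose with the Li-doped particles. Control libraries held 190.49, 180.36 and 191.8 FPKM. Li-doped Ag2S NPs gave 347.6, 337.12 and 236.48 at 160 μg/mL (log2 0.69 ± 0.15, adjusted p = 0.00239) and 299.96, 330.91 and 382.3 at 320 μg/mL (log2 0.84 ± 0.12, adjusted p = 0.000152). Ag2S NPs gave 197.52, 196.26 and 270.3, and 169.15, 234.59 and 233.85, and were not called (adjusted p = 0.277 and 0.278). CNFN (cornifelin), a small envelope protein, was at 6.05, 5.18 and 6.64 FPKM in control and at 4.08, 2.64 and 2.03 after Li-doped Ag2S NPs at 160 μg/mL, a fall to 0.481 of control (adjusted p = 0.002). At 320 μg/mL it was at 3.54, 4.80 and 2.52 after Ag2S NPs, a fall of 0.74 ± 0.22 on the log2 scale (adjusted p = 0.0167) that was not called after scaling by median ratio or without library 3 or 9 (adjusted p 0.0613 to 0.0664), and at 6.86, 4.77 and 6.44 after Li-doped Ag2S NPs (log2 difference 0.01 ± 0.22, adjusted p = 0.983). At 160 μg/mL Ag2S NPs gave 4.50, 5.30 and 4.28 (log2 difference -0.34 ± 0.23, adjusted p = 0.27).

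Among the secreted and junctional proteins only DMKN (dermokine) was tested, at group means of 54.2 to 65.3 FPKM, and its single call was a rise of 0.23 ± 0.09 on the log2 scale after Li-doped Ag2S NPs at 320 μg/mL (adjusted p = 0.0385), which was lost without library 1, 2, 14 or 15 and in 3 other settings (log2 0.17 to 0.24, adjusted p 0.0548 to 0.158). SBSN (suprabasin), its neighbour on chromosome 19, was at 0, 0.15 and 0 FPKM in control and at 1.81, 1.13 and 0.93 after Li-doped Ag2S NPs at 160 μg/mL, while no other treated library exceeded 0.1. In the fit with no filter on level, SBSN was called in that group (log2 3.31 ± 0.42, adjusted p = 0.000159). CALML5, a calcium-binding calmodulin-like protein of differentiating keratinocytes, was at 1.75, 0.86 and 1.31 FPKM in control. It was at 0.71, 0 and 0.55 after Li-doped Ag2S NPs at 160 μg/mL, a fall to 0.276 of control (adjusted p = 0.0296) that was lost without library 1 or 3, with no filter and with a pseudocount of 0.01 (adjusted p 0.0552 to 0.0923). Its log2 change of -1.86 ran from -2.41 without library 10 to -0.90 without library 11. It was at 3.74, 3.35 and 5.35 after Ag2S NPs at that dose (log2 difference 1.62 ± 0.66, adjusted p = 0.0783). At 320 μg/mL Ag2S NPs gave 2.35, 1.22 and 4.37 and Li-doped Ag2S NPs 2.32, 1.57 and 2.23, and neither was called (adjusted p = 0.0977 and 0.185). CALML5 thus stood below control in the same group as EVPL and CNFN.

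The peptidylarginine deiminases PADI1 and PADI3, enzymes that turn arginine into citrulline in filaggrin and keratins, rose in all 4 comparisons. PADI3 (chr1:17249098-17284233, plus strand) was at 1.42, 1.37 and 1.26 FPKM in control. Ag2S NPs gave 4.68, 4.16 and 4.51 at 160 μg/mL, against 15.48, 15.59 and 15.71 at 320 μg/mL, whereas Li-doped Ag2S NPs gave 4.75, 4.73 and 5.54 and then 3.99, 4.08 and 3.36. Ag2S NPs at 320 μg/mL stood above all other groups, with a 10.8-fold rise (log2 3.44 ± 0.14, adjusted p = 9.06e-09). The other rises were 3.14-fold (adjusted p = 3.39e-05) for Ag2S NPs at 160 μg/mL and 3.52-fold (adjusted p = 1.94e-06) and 2.69-fold (adjusted p = 6.33e-06) for Li-doped Ag2S NPs at 160 and 320 μg/mL. PADI1, beside it on chromosome 1, was at 1.21, 1.62 and 1.10 FPKM in control. Ag2S NPs gave 2.96, 2.58 and 2.27 at 160 μg/mL, against 6.05, 5.03 and 5.33 at 320 μg/mL, and Li-doped Ag2S NPs gave 6.34, 7.18 and 4.60 and then 2.12, 2.02 and 1.66. No treated group overlapped the control. PADI1 rose 1.93-fold (adjusted p = 0.00822) and 4.34-fold (adjusted p = 1.04e-05) at 160 μg/mL, and 3.99-fold (adjusted p = 1.06e-05) and 1.45-fold (adjusted p = 0.034) at 320 μg/mL, for undoped and Li-doped particles. The last of these was lost when library 1, 3, 9, 13 or 14 was left out, with no filter and with the compared groups alone (adjusted p 0.0509 to 0.114, log2 0.43 to 0.54).

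CASP14, a caspase of cornifying keratinocytes that helps to break down filaggrin, was too low to be tested with the filter. It was at 0.47, 0.48 and 0.32 FPKM in control, 1.48, 1.28 and 1.04 after Ag2S NPs at 320 μg/mL, and 1.49, 1.15 and 1.72 after Li-doped Ag2S NPs at 160 μg/mL. The remaining groups, at 0.41 to 0.65, overlapped the control. Without the filter it was called in the groups that did not overlap it, with log2 changes of 1.39 ± 0.27 (adjusted p = 0.00341) and 1.57 ± 0.28 (adjusted p = 0.00131). ASPRV1, a protease that processes filaggrin, had group means of 0.313 to 0.367 FPKM.

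The epidermal lipoxygenases ALOX12B and ALOXE3, which act one after the other on the lipids of the envelope, were low in control. ALOXE3 (chr17:8095900-8119047, minus strand) was at 0.10, 0.30 and 0.16 FPKM in control and 7.54, 4.92 and 4.59 after Li-doped Ag2S NPs at 160 μg/mL. It was at 0.68, 0.42 and 0.31 and then 1.08, 1.39 and 1.68 after Ag2S NPs at 160 and 320 μg/mL, and at 1.80, 1.53 and 0.88 after Li-doped Ag2S NPs at 320 μg/mL. Every treated library was above every control library, and the group with Li-doped Ag2S NPs at 160 μg/mL was above all others. ALOXE3 rose there by a log2 of 4.36 ± 0.38 (adjusted p = 2.72e-06), while the difference of 1.00 ± 0.38 after Ag2S NPs at 160 μg/mL was not called (adjusted p = 0.0632). Because ALOXE3 passed the filter at this dose only through the group given Li-doped particles, the first p-value is no test of its rise. At 320 μg/mL it was under the filter, and without the filter both particles were called, at 2.41 ± 0.36 (adjusted p = 0.000817) and 2.40 ± 0.36 (adjusted p = 0.000728). Its transcript ENST00000380149 was listed at 0 in all libraries of control and Ag2S NPs, at 2.21, 3.59 and 2.1 FPKM after Li-doped Ag2S NPs at 160 μg/mL and at 0.95, 0.79 and 0.87 after them at 320 μg/mL. ALOX12B was at 0.07, 0.32 and 0.07 FPKM in control and 1.64, 1.43 and 0.84 after Li-doped Ag2S NPs at 160 μg/mL, and at most 1.51 in other libraries, so this group overlapped other treated groups. At 320 μg/mL Ag2S NPs gave 0.59, 0.48 and 0.88 and Li-doped Ag2S NPs 1.51, 0.29 and 0.63. Without the filter ALOX12B was called in these 3 groups, at 2.56 ± 0.64 (adjusted p = 0.00888), 1.67 ± 0.55 (adjusted p = 0.0418) and 1.75 ± 0.55 (adjusted p = 0.03). It was not called after Ag2S NPs at 160 μg/mL (0.22 ± 0.64, adjusted p = 0.863).

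The particles were compared with each other at equal dose. At 160 μg/mL, Li-doped Ag2S NPs gave 8 members higher and 5 lower than Ag2S NPs, and 3 were not called, where 50.4% of all genes were called, 21.4% higher and 29% lower. Over the 12 members with a control mean of at least 1 FPKM, 4 were higher and 5 lower, since SPRR2D, LCE1C, LCE3E and ALOXE3 had passed the filter only through treated groups. The higher members were SPRR1B, SPRR2D, LCE1C, LCE3E, PPL, CSTA, PADI1 and ALOXE3, and the lower ones IVL, CNFN, SCEL, EVPL and CALML5. At 320 μg/mL, 3 were higher (SPRR1B, CNFN and CSTA), 4 were lower (IVL, SCEL, PADI1 and PADI3) and 6 were not called, where 26.2% of all genes were called, 10.1% higher and 16.1% lower. IVL and SCEL were lower with Li doping at both doses. For SCEL the Li-doped level was 0.321 of the undoped one at 160 μg/mL (adjusted p = 1.41e-06) and 0.319 at 320 μg/mL (adjusted p = 2.27e-06). PADI1 turned with dose, being 2.25-fold higher with Li doping at 160 μg/mL (adjusted p = 0.00122) and at 0.364 of the undoped level at 320 μg/mL (adjusted p = 0.00055). For PADI3 the log2 difference between particles was 0.16 ± 0.15 at 160 μg/mL (adjusted p = 0.394) and -2.01 ± 0.14 at 320 μg/mL (adjusted p = 5.95e-06). At 160 μg/mL the calls of LCE1C, LCE3E, CNFN, PPL and CSTA, with adjusted p between 0.022 and 0.0478, were lost when single libraries were left out (LCE1C without 1, 3 or 5, LCE3E without 5, 10 or 12, CNFN without 5, 11 or 12, PPL without 1, 2, 3, 5, 6, 11 or 12, and CSTA without 4, 5, 10 or 11). The adjusted p was then at most 0.174, and the log2 differences were at least 1.11, 2.01, 0.37 and 0.16 for LCE1C, LCE3E, CSTA and PPL and -0.68 to -0.50 for CNFN. The calls of LCE1C and LCE3E were also lost with a pseudocount of 0.01, and those of LCE1C and CSTA with no filter. With the compared groups alone, LCE1C, PPL and CSTA were not called, and neither was LCE1C in 1 fit of all 15 libraries. The call of CNFN at 320 μg/mL was lost without library 7, 9, 13 or 15, with no filter and with the compared groups alone (adjusted p up to 0.0962, log2 at least 0.52).

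The doses were compared within each particle, in a fit of all 15 libraries in which 17 members were tested, LCE3D included. Of these, SPRR2D, LCE1C, LCE3D, LCE3E and ALOXE3 passed the filter only through treated groups, and the other 12 gave 3 risen and 0 fallen for Ag2S NPs, 5 and 3 for Li-doped Ag2S NPs, and 5 and 3 for the difference of dose effects. From 160 to 320 μg/mL of Ag2S NPs, 4 members rose (SPRR1B, PADI1, PADI3 and ALOXE3), 0 fell by limma (0 at an unadjusted p under 0.05) and 13 were not called, where 12.5% of all genes were called, 4.84% higher and 7.68% lower. PADI3 rose 3.45-fold (adjusted p = 4.13e-07) and PADI1 2.07-fold (adjusted p = 0.00312) between these doses, and their libraries did not overlap, as was so for 31.9% of all genes. The call of ALOXE3 (log2 1.41 ± 0.36, adjusted p = 0.017) was lost without library 6, 8 or 9 (log2 1.20 to 1.40, adjusted p 0.0547 to 0.0718). From 160 to 320 μg/mL of Li-doped Ag2S NPs, 5 rose (SPRR1B, IVL, CNFN, EVPL and CALML5) and 5 fell (SPRR2D, PPL, PADI1, PADI3 and ALOXE3), where 42.8% of all genes were called, 19.6% higher and 23.3% lower. EVPL rose 2.20-fold (adjusted p = 2.08e-08), IVL 2.39-fold (adjusted p = 2.10e-05) and SPRR1B 2.32-fold (adjusted p = 2.66e-08) here, while PADI1 went to 0.335 (adjusted p = 1.45e-05) and ALOXE3 to 0.256 (adjusted p = 0.000406) of the lower dose. The libraries of these 5 genes did not overlap between the doses, as was so for 49.5% of all genes. The smaller falls of PADI3 (log2 -0.39 ± 0.13, adjusted p = 0.0223) and PPL (log2 -0.21 ± 0.08, adjusted p = 0.034) were lost without library 12 or 15 and with the compared groups alone (adjusted p up to 0.104 and 0.135). That of PPL was also lost without library 11 and after scaling by median ratio.

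A difference of dose effects between the particles was called for 11 of the 17 members, 5 with a more positive effect for the Li-doped particles and 6 with a more negative one, where 39.7% of all genes were called, 20.2% and 19.5% in each direction. PADI1, PADI3 and ALOXE3 went up with dose for Ag2S NPs and down for Li-doped Ag2S NPs, with differences of dose effects of -2.62 ± 0.28, -2.17 ± 0.18 and -3.37 ± 0.50 on the log2 scale (adjusted p = 3.49e-06, 2.17e-07 and 8.66e-05). For EVPL, IVL and CNFN, whose rise with dose was called for Li-doped particles, the differences of dose effects were 1.00 ± 0.11, 1.04 ± 0.23 and 1.47 ± 0.35 (adjusted p = 4.07e-06, 0.00232 and 0.00386). SCEL had a difference of -0.01 ± 0.16 (95% interval -0.36 to 0.34).

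**Figure D4:**
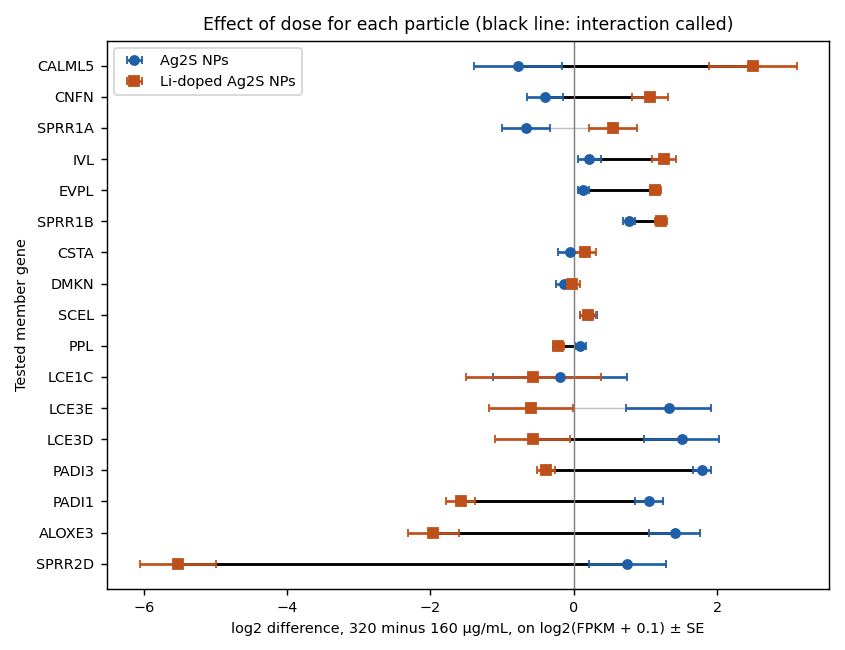
Log2 difference between 320 and 160 μg/mL on log2(FPKM + 0.1), with SE (horizontal axis), for Ag2S NPs (circles) and Li-doped Ag2S NPs (squares) in the 17 members tested over 15 libraries (vertical axis); black lines join the particles where the difference of dose effects had an adjusted p under 0.05. SPRR2D, ALOXE3, PADI1 and PADI3 lie left of 0 for Li-doped particles, and EVPL, IVL, CNFN and CALML5 lie right of 0.

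Other genes of keratinocyte differentiation give the setting of these changes, and the counts of each list stand against 35.2%, 63.3%, 52.4% and 61.6% of all genes called in the 4 comparisons, in the order undoped and Li-doped at 160 and then 320 μg/mL, with more of all genes lower than higher in each. TGM1, a transglutaminase that cross-links the envelope and the 1 of 3 listed transglutaminases that was tested, fell in all 4 comparisons, by log2 changes of -0.87, -1.54, -1.03 and -0.55 for undoped and Li-doped particles at 160 and then 320 μg/mL (adjusted p at most 0.000224). Of 7 tested genes of the suprabasal and early differentiation list, 2 rose and 4 fell after Ag2S NPs and 1 rose and 5 fell after Li-doped Ag2S NPs at 160 μg/mL, and 2 and 5, and 3 and 2, did so at 320 μg/mL. KRT13 and KRT4, keratins of internal stratified epithelia, fell in all 4, KRT13 from a mean of 608.0 FPKM to 22.8 after Li-doped Ag2S NPs at 160 μg/mL. KRT1, the keratin of the spinous layer, was at 84.5 FPKM ± 1.49 (SD, n = 3) in control, and it fell after Li-doped Ag2S NPs at 160 μg/mL to 7.52 ± 1.497 and rose after them at 320 μg/mL to 205.3 ± 5.66 (adjusted p = 4.03e-09 and 1.22e-08). After Ag2S NPs KRT1 fell at both doses, to 58.3 ± 6.27 at 160 μg/mL and 45.5 ± 1.08 at 320 μg/mL (adjusted p = 0.00838 and 2.13e-07). The wound-activated keratins KRT6A, KRT16 and KRT17, all 3 that were tested, rose in all 4 comparisons, KRT16 by log2 2.16, 3.93, 3.25 and 4.79.

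Of the 13 basal keratinocyte genes, all tested, 9 rose and 1 fell after Ag2S NPs and 9 rose and 2 fell after Li-doped Ag2S NPs at 160 μg/mL, and 12 and 1, and 11 and 1, did so at 320 μg/mL. KRT14, a keratin of the basal layer, rose by log2 1.02, 0.96, 1.23 and 2.16, whereas KRT15 fell in all 4. Among 15 tested transcription factors of terminal differentiation, 4, 6, 7 and 6 rose and 3, 4, 4 and 4 fell. ELF3, an epithelial factor of the ETS family, fell from 78.0 FPKM ± 3.54 (SD, n = 3) in control to 2.53 ± 0.65 after Li-doped Ag2S NPs at 160 μg/mL and 3.49 ± 0.26 after them at 320 μg/mL (adjusted p = 8.75e-10 and 5.87e-11). Of the barrier lipid genes, ELOVL4, which makes very long fatty acids, was called higher in all 4, but its control mean of 0.423 FPKM means that it passed the filter only through treated groups. SMPD1 and UGCG fell in all 4, with 1 risen and 2 fallen and then 3 and 3 of 9 tested at 160 μg/mL, and 1 and 5 and then 1 and 2 of 6 at 320 μg/mL. Of 12 tested proteases and inhibitors, 2, 3, 3 and 2 rose and 5, 8, 7 and 5 fell, with SERPINB3, SERPINB4 and KLK10 falling and CTSV rising in all 4. LCE1F, another gene of the epidermal differentiation complex, was listed at 0 in control and in Ag2S NPs and had a mean of 5.95 FPKM ± 1.25 (SD, n = 3) after Li-doped Ag2S NPs at 160 μg/mL and 0.167 ± 0.289 at 320 μg/mL, the same order as SPRR2D. Of the other 19 genes of this list, 2 were tested, and PGLYRP3, an antibacterial protein, fell in 3 of the 4 comparisons.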

How the data were processed

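RNA of HaCaT cells was sequenced in 15 libraries of 5 groups, mapped to groups by the sample titles. Per the labels and methods, the authors sequenced paired reads of 150 bases from a kit not stated to keep the strand, aligned them with TopHat, and estimated levels with Cufflinks 2.1.1 and Cuffdiff under multi-read and bias correction. For genome build and annotation, nothing is given in the sources used here. Deposited values used are FPKM per gene and library in 2 tables of 9 libraries, which share identical control values, and FPKM per transcript. The authors' own fold changes and p-values, and the tables of 2 groups, were not used. Depth is unknown, so no counting intervals are given.

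Genes averaging 1 FPKM or more were analysed on log2(FPKM + 0.1) with limma 3.58.1 (R 4.3.3, lmFit, eBayes with trend, 2-sided, Benjamini-Hochberg over all genes), and the fit was run on simulated data. The simulation drew independent normal spread around control means for genes already past the filter. It therefore does not cover genes that passed only through treated groups, or libraries that are technical replicates. Fold changes are on that scale, and for low genes they can lie above or below the ratio of mean FPKM. Dose comparisons used all 15 libraries. Alternatives tried were median ratio scaling, pseudocounts of 1 and 0.01, a mean filter of 5 FPKM or none, compared groups only, a robust fit, leaving out each library and, added after seeing the data, 1 fit of all 15 libraries. All members are accounted for. Those with an adjusted p under 0.05 and a change past 2-fold against control are given in every library, and up to 4 genes are named per related list, by smallest p at 320 μg/mL; KRT15 and LCE1F were named after their values were seen. The members and lists were chosen with earlier results of these data known. Gene coordinates follow GENCODE release 29 (GRCh38), which holds all 18179 gene identifiers; promoters are from RefSeq. Some genes of the related lists that the naming rule picks are not reported here.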

Additional observations from a re-analysis of the deposited data

Results flagged for a closer look

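The effect of dose, 320 against 160 μg/mL, differed between Li-doped and undoped Ag2S NPs for 11 members by the interaction term of the limma fit over all 15 libraries. The difference, Li-doped minus undoped on the log2 scale, was positive for SPRR1B (0.45), IVL (1.04), CNFN (1.47), EVPL (1.00) and CALML5 (3.27). It was negative for SPRR2D (-6.27), LCE3D (-2.08), PPL (-0.31), PADI1 (-2.62), PADI3 (-2.17) and ALOXE3 (-3.37). Without library 11, in which CALML5 is listed at 0, its value was 2.31. SPRR2D, LCE3D and ALOXE3 passed the filter only through treated groups. Among all genes tested 39.7% were called in this way. The values of SPRR2D and LCE3D depend on the pseudocount, because several of their libraries are listed at 0, and the call of LCE3D was lost with a pseudocount of 0.01 or without library 5, 8, 9, 13 or 15 (adjusted p up to 0.0968), and that of PPL without library 5, 6, 7, 8, 12 or 15 (adjusted p up to 0.0885).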

How the results depend on the processing

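No paired analysis was possible because the 15 libraries carry separate replicate numbers, none of which is shared between groups. Of 138 gene results over the 9 comparisons, 89 were called, and 72 of these kept their call and direction in every alternative that gave a value. None of the called results changed direction. The other 17 lost the call under at least 1 alternative, 4 of them only when a library was left out.

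The filter moved the counts most. With a mean of at least 5 FPKM the counts of members, 7 or 8 of which were then tested, fell to 2 risen after Ag2S NPs at 160 μg/mL against control, 3 risen and 3 fallen after Li-doped Ag2S NPs at that dose, 3 and 2 between the particles at 160 μg/mL, 2 risen between the doses of Ag2S NPs, 2 and 2 between the doses of Li-doped Ag2S NPs, and 3 and 2 for the difference of dose effects. With no filter, 16 rose after Li-doped Ag2S NPs and 13 were higher than with Ag2S NPs at 160 μg/mL, 10 and 13 rose at 320 μg/mL after Ag2S NPs and Li-doped Ag2S NPs, and 9 fell between the doses of Li-doped Ag2S NPs. With the compared groups alone, 1 member fell between the doses of Ag2S NPs. Leaving out a library gave 5 to 8 members higher with Li doping at 160 μg/mL and 3 to 5 falling between the doses of Li-doped Ag2S NPs, the lowest values without library 5, 10, 11 or 12 and without library 12 or 15. No count moved by over 1.5 times with another pseudocount, median ratio scaling, a robust fit or 1 fit of all libraries; against control, median ratio scaling gave 7 risen and 3 fallen members for Ag2S NPs at 160 μg/mL (5 and 3 without it), 11 and 5 for Li-doped Ag2S NPs (9 and 6), and at 320 μg/mL 7 and 3 (6 and 4) and 9 and 3 (8 and 3). Of the 49 gene results not called, 13 were called under at least 1 alternative.

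Reversals concerned values that were not called. With median ratio scaling the dose difference of DMKN for Li-doped particles became 0.041 and the difference of dose effects of SCEL 0.029. When libraries were left out, the range was -0.023 to 0.17 for DMKN between particles at 160 μg/mL, -0.15 to 0.044 for its dose difference with Li-doped particles and -0.0072 to 0.19 for its difference of dose effects. It was -0.095 to 0.16 for CNFN after Li-doped Ag2S NPs at 320 μg/mL, -0.65 to 0.23 for CALML5 between particles at 320 μg/mL, -1.36 to 0.87 and -1.44 to 0.79 for LCE1C between doses of Ag2S NPs and in the difference of dose effects, -0.14 to 0.10 and -0.027 to 0.25 for CSTA between doses of undoped and Li-doped particles, and -0.12 to 0.055 for the difference of dose effects of SCEL. The cause was not tested. The number of fragments behind an FPKM is unknown, which limits the genes under 1 FPKM most.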
